A study of Mus musculus with 41 samples.

Results

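Hippocampal RNA of the 5 mice labelled as having high cognition was compared with that of the 12 mice labelled as having medium cognition. These 17 arrays are the whole of both groups, chosen by that label alone, out of 41 arrays in the series. A further mouse is labelled as ranked inconsistently on one description line and as ranked consistently on another, and it was kept out of the medium group. All were male inbred C57BL/6J mice, so the groups share strain and sex and differ in no treatment, allele or agent. Behavioural testing started at an age of 10 weeks and ended with passive avoidance at 37 to 38 weeks, and RNA was extracted from the hippocampus a month after the last test. A mouse carries the label high or medium where both ranking systems of the study, built on 11 parameters of 5 learning and memory tests, placed it in that class. The rank is a label on each mouse, and every mouse had gone through the full battery, so the groups differ in how they performed and not in what was done to them. The comparison asks which transcripts set the best performers apart from the middle of the ranking. Each mouse gave 1 biotin-labelled sample on 1 Affymetrix mouse array, on which a probe set is a group of short probes that reads 1 transcript or a set of related ones.

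The hippocampus encodes spatial and episodic memory, and its main relay runs from the granule cells of the dentate gyrus to the pyramidal cells of fields CA3 and CA1. Lasting memory needs new RNA and protein: firing neurons switch on immediate early transcription factors such as Fos and then effector genes such as Bdnf, and the new proteins are folded by chaperones in the cytosol, the endoplasmic reticulum and the mitochondria. Heat shock factors act on the genes of cytosolic and mitochondrial chaperones, and the unfolded protein response acts on those of the endoplasmic reticulum.

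Levels below are log2(intensity + 16) after quantile normalization over the 41 arrays. Differences are high minus medium on that scale, which understates the change of dim genes, and come from a limma fit of the high, medium and low arrays with moderated statistics and Benjamini-Hochberg adjustment over 22519 tested probe sets. A probe set passed the test at an adjusted p under 0.05. In whole tissue, a lower level from fewer cells of a type and one from less RNA per cell cannot be told apart. Array medians before normalization lay between 25.9 and 46.9 in high mice and between 29.5 and 53.2 in medium mice.

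Medium replicate 9 stood apart from the other 16 arrays. Its correlations with them were 0.955 to 0.964, against 0.980 to 0.992 among the others. The mean of its dentate granule cell markers was 7.53, below the 8.50 to 8.90 of the other arrays of the series, and that of its CA1 to CA3 markers was 8.25, against 8.63 to 8.87. Its striatal marker mean was 8.93 and its neocortical mean 9.16, against at most 8.34 and 8.49 in the other arrays, so the markers of that library go against its label as hippocampus. Each result below was therefore also computed without it. In the other arrays the markers that define the hippocampus were bright, and the high arrays spanned 8.72 to 8.83 for the dentate list and 8.66 to 8.76 for the CA1 to CA3 list.

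**Figure D1:**
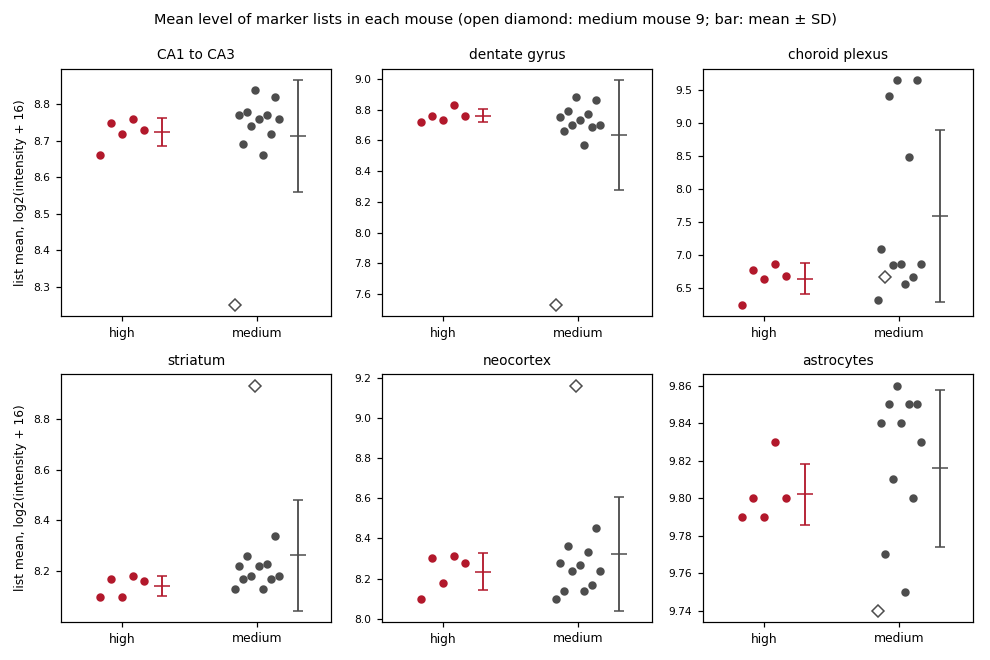
Mean level of 6 marker lists, in log2(intensity + 16), in each of the 5 high and 12 medium mice; points are mice, the open diamond is medium mouse 9, and bars are means with SD. Medium mouse 9 lies below every other mouse for both hippocampal lists and above every other mouse for the striatal and neocortical lists, and the 4 medium mice above 8 in the choroid plexus panel have no counterpart among the high mice.

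Of the 22519 probe sets, 7 passed, which is 0.0311%. In high mice Bloc1s2, Elp4, P4ha2 and Rbm14 rose and Ccni, Epb41l1 and Crocc fell, by 0.30 to 0.48 on the log2 scale. The same 7 passed without medium replicate 9, and an eighth probe set joined them. For 4 of the 7, Bloc1s2, Elp4, Rbm14 and Ccni, the high and medium arrays did not overlap. Over all tested probe sets, every high array lay above every medium array for 0.298% and below every medium array for 0.0977%.

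Bloc1s2 encodes a subunit shared by BLOC-1 and BORC, the complexes that form lysosome-related organelles and position lysosomes. Its level (probe set 1429048_at) was 9.19, 9.34, 9.36, 9.36 and 9.20 in the 5 high mice, against a lowest of 8.88, a median of 8.97 and a highest of 9.10 in the 12 medium mice. All high arrays lay above all medium ones. The difference was 0.30 ± 0.05 (SE), a 1.24-fold level, with an adjusted p of 0.0223 in limma, and 0.32 without medium replicate 9 (adjusted p = 0.0106 in limma). The 8 low mice averaged 8.94 ± 0.07 (SD), near the medium mean of 8.98 ± 0.07. Of the other BLOC-1 and BORC subunits, 9 were tested and none passed. Borcs7, a BORC subunit, differed by 0.29 ± 0.12 (unadjusted p = 0.0262), and the remaining 8 lay between -0.11 and 0.06. The differences therefore varied among the subunits.

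Elp4 encodes a subunit of Elongator, the complex that modifies the wobble uridine of transfer RNAs. Elp4 was at 7.03, 7.17, 7.10, 6.96 and 7.04 in high mice and ranged from 6.56 through a median of 6.67 to 6.94 in medium mice. The lowest high array was thus just above the highest medium one. The difference was 0.35 ± 0.06, 1.28-fold, with an adjusted p of 0.0280 in limma. The other 4 Elongator subunits tested had differences of 0.11 for Elp6, 0.06 for Elp5, 0.05 for Elp2 and 0.01 for Elp3, of which none passed. The difference of Elp4 exceeded each of them.

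P4ha2, with P4ha1, encodes a catalytic subunit of collagen prolyl 4-hydroxylase, an enzyme of the endoplasmic reticulum that hydroxylates prolines of collagen chains. P4ha2 was at 6.67, 6.70, 6.57, 6.48 and 6.34 in high mice, against 5.80, 6.08 and 6.39 as the lowest, median and highest medium values. A single medium array reached the range of the high ones. The difference was 0.48 ± 0.09, 1.39-fold (adjusted p = 0.0280 in limma). P4ha1 differed in the same direction, by 0.38 ± 0.13 (unadjusted p = 0.00714, adjusted p = 0.215 in limma), and had levels of 8.32 ± 0.22 in high and 7.94 ± 0.29 in medium mice (SD, n = 5 and 12, limma). Of the 13 prolyl and lysyl hydroxylase genes tested, 4 were above 0 and the median was -0.02, or 0.019 with arrays scaled to a common median. The median of all probe sets was 0.0653 under that scaling.

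Rbm14 encodes a nuclear RNA-binding protein of paraspeckles. Its passing probe set, 1436979_x_at, was at 8.72, 8.66, 8.89, 8.61 and 8.70 in high mice, against 8.07, 8.35 and 8.47 as the lowest, median and highest medium values. The groups did not overlap. The difference was 0.40 ± 0.07, 1.32-fold (adjusted p = 0.0280 in limma). The other 3 tested probe sets of Rbm14 gave 0.11 ± 0.19, 0.04 ± 0.09 and 0.02 ± 0.11, so the rise was seen on 1 of 4 probe sets. The x in the name of the passing probe set marks probes that the array's maker lists as able to bind other transcripts.

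Among the genes that fell, Ccni encodes cyclin I, an atypical cyclin that is high in postmitotic cells. Probe set 1448334_a_at was at 10.66, 10.51, 10.59, 10.64 and 10.53 in high mice, against 10.70, 10.89 and 11.04 as the lowest, median and highest medium values. All 5 high arrays lay below every medium array. The difference was -0.30 ± 0.05, 0.811-fold (adjusted p = 0.0280 in limma). Its other 3 tested probe sets were at -0.19 ± 0.07 (unadjusted p = 0.00945), -0.25 ± 0.12 and -0.04 ± 0.05. The brightest of these, with levels of 11.74 ± 0.05 in high and 11.77 ± 0.08 in medium mice, gave the smallest difference.

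Epb41l1 encodes a neuronal protein of the Epb41 family, which links neuronal membrane proteins such as AMPA receptors to the spectrin and actin skeleton. Probe set 1421090_at was at 7.76, 7.36, 7.18, 7.13 and 7.69 in high mice, against 7.67, 7.95 and 8.05 as the lowest, median and highest medium values. High replicates 1 and 5 lay within the medium range and the other high arrays below it, and 2 medium arrays reached the high range. The difference was -0.47 ± 0.08, 0.723-fold (adjusted p = 0.0280 in limma), with an SD of 0.29 in high and 0.12 in medium mice. Its brighter probe sets gave -0.18 ± 0.11 and 0.02 ± 0.07. Of the 14 genes of the Epb41 family and the spectrin skeleton, each at its brightest probe set, none passed, and the smallest p was that of Ank3, the ankyrin of the axon initial segment, at 0.16 ± 0.06 (unadjusted p = 0.00966).

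Crocc encodes rootletin, the structural protein of the ciliary rootlet, which also links centrioles. Crocc was dim, at 6.00, 5.79, 5.94, 6.13 and 5.93 in high mice and 6.10, 6.44 and 6.73 as the lowest, median and highest medium values. The highest medium value was that of medium replicate 9, and a single medium array reached the high range. The difference was -0.47 ± 0.08, 0.724-fold (adjusted p = 0.0280 in limma), and -0.44 without medium replicate 9. The low mice averaged 6.26 ± 0.16 (SD), between the high and medium means of 5.96 ± 0.12 and 6.42 ± 0.17. Of 28 genes of the cilium base and rootlet, 14 lay above 0 and 14 below, with a median of 0.00. The intraflagellar transport genes Ift88 and Ift81 were at -0.17 ± 0.06 and -0.14 ± 0.06 (unadjusted p = 0.0109 and 0.0243).

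**Figure D2:**
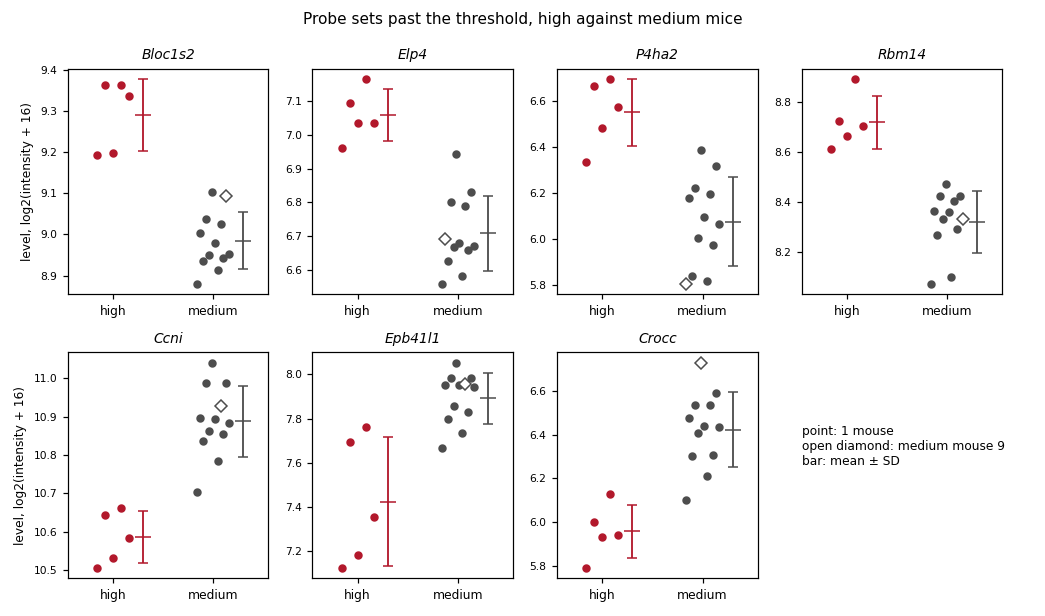
Level in log2(intensity + 16) of the 7 probe sets that passed, in each high and medium mouse; points are mice, the open diamond is medium mouse 9, and bars are means with SD. High and medium mice are separated for Bloc1s2, Elp4, Rbm14 and Ccni, and overlap by 1 or 2 medium mice for P4ha2, Crocc and Epb41l1.

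The tested probe sets of the 7 genes did not all differ alike. Rbm14, Ccni and Epb41l1 had 8 further probe sets between them, of which 7 had the sign of the one that passed and 1, of Ccni, an unadjusted p under 0.05. No other probe set was tested for Bloc1s2, Elp4, P4ha2 and Crocc.

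**Figure D3:**
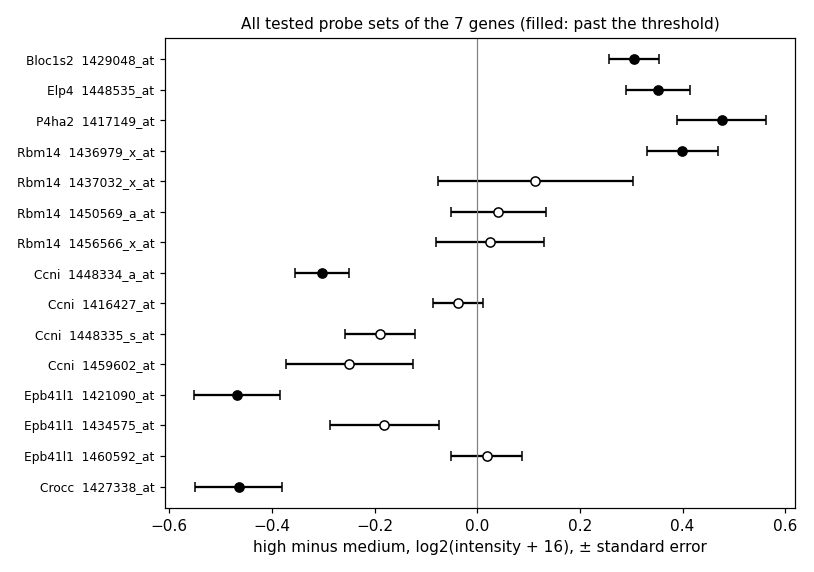
Difference of high minus medium in log2(intensity + 16) for every tested probe set of the 7 genes, with standard errors; filled points passed the threshold and open ones did not. For Rbm14, Epb41l1 and Ccni the open points lie nearer to 0 than the filled one.

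The 7 calls depended on how the arrays were brought to a common scale and on which arrays entered the fit. With intensities scaled to a common median in place of quantile normalization, 927 probe sets passed, 882 higher and 45 lower, so that 95.1% of calls were higher in place of 57.1%; with log2 values centred on their medians, none passed by limma, and 2251 had an unadjusted p under 0.05, against 2971 in the quantile-normalized fit. None passed with the 17 high and medium arrays alone, without the low mice that add to the estimate of the spread, where 3083 had an unadjusted p under 0.05. With the doubly labelled mouse added to the medium group 8 passed, P4ha2 no longer among them (0.44, adjusted p = 0.0714 in limma) and Immp1l among them (0.26, adjusted p = 0.0461 in limma). All 7 differences kept their sign under each of these settings. The settings share most arrays with the fit that picked the 7, so a kept sign is no separate support. The labels name no processing batch, but the spike-in control probe sets, RNAs added in fixed amounts, split the arrays into 3 sets: 0 high and 2 medium arrays lay in the first, 1 high and 5 medium in the second, and 4 high and 5 medium in the third. With this set as a block, Bloc1s2 and Ccni (adjusted p = 0.0242 each), Rbm14 and Elp4 (0.0323 each) passed in limma, and Epb41l1, Crocc (0.0754 each) and P4ha2 (0.0820) did not. The hybridization controls alone, taken up after seeing the data, placed 0, 1 and 4 high and 2, 1 and 9 medium arrays in the 3 sets. High replicate 2 in place of 1 was then in the second set. With that grouping as a block all 7 passed, at adjusted p from 0.0242 to 0.0434 in limma. Within the second spike-in set the 7 differences ran from 0.20 for Bloc1s2 to 0.72 for P4ha2 among the genes that rose and from -0.18 for Epb41l1 to -0.42 for Crocc among those that fell. Within the third set they ran from 0.32 for P4ha2 to 0.43 for Rbm14 and from -0.35 for Ccni to -0.50 for Epb41l1.

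The probe set that passed only without medium replicate 9, 1460314_s_at, is annotated to 12 genes of the replication-dependent histone H3 clusters, which encode a core protein of nucleosomes, so its signal cannot be given to 1 of them. It was at 7.30, 7.06, 7.13, 7.08 and 7.25 in high mice, against 6.21, 6.68 and 7.04 as the lowest, median and highest medium values. The lowest was medium replicate 9, and all high arrays lay above all medium ones with or without it. The difference was 0.47 ± 0.09 (adjusted p = 0.0520 in limma) with that array and 0.42 ± 0.07 (adjusted p = 0.0376 in limma) without it. This was chosen for naming after its values were seen.

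The 12 genes next by p in each direction did not pass, with adjusted p from 0.0632 to 0.0995 in limma. Each was picked for its small p, so its size on other probe sets of the same gene is given where one was tested. The low mean lay above the medium mean for all 12 higher genes and below it for 11 of the 12 lower ones. Picking genes against the same medium mice favours this. Unadjusted p-values under 0.05 were found for 7.3% of probe sets in the higher and 5.9% in the lower direction, and 51.9% of all differences were above 0.

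Among the 12 next higher genes, Hspe1, the co-chaperonin that caps the mitochondrial HSP60 ring, was at 10.82, 10.58, 10.79, 10.67 and 10.64 in high mice, against 10.25, 10.44 and 10.55 as the lowest, median and highest medium values. The groups did not overlap, and the difference was 0.27 ± 0.06 (adjusted p = 0.0985 in limma); the other tested probe set of Hspe1 gave 0.11 ± 0.08. Hspa13, an HSP70-like protein of microsomes, differed by 0.25 ± 0.05, with 0.026, 0.057 and 0.106 on its other 3 tested probe sets. Immp1l, a subunit of the peptidase that trims proteins of the mitochondrial inner membrane, differed by 0.26 ± 0.05. Tmed5, a cargo receptor between endoplasmic reticulum and Golgi, and Ostc, a subunit of the enzyme that attaches N-linked sugars, differed by 0.27 ± 0.06 and 0.25 ± 0.06. The other probe sets of Tmed5 gave -0.096, 0.069 and 0.219 and that of Ostc 0.342. Herpud1, which helps to degrade misfolded proteins of the endoplasmic reticulum, differed by 0.40 ± 0.09 on probe set 1448185_at and by 0.18 ± 0.08 on its brighter one.

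Kdm3a and Kdm5c encode histone H3 lysine demethylases and had differences of 0.27 ± 0.06 and 0.43 ± 0.10, and the other 2 probe sets of Kdm5c gave 0.212 and 0.127. Gtf2e1, a subunit of the general transcription factor TFIIE, was at 0.33 ± 0.07, Ppil1, a prolyl isomerase of the spliceosome, at 0.28 ± 0.06, and Rpain, which carries replication protein A into the nucleus, at 0.41 ± 0.09. Cblb, a ubiquitin ligase, was at 0.43 ± 0.09. Other probe sets were nearer to 0, at 0.177 and 0.053 for Cblb and 0.125 for Rpain. None of these passed.

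Of the 12 next lower genes, Fgfr3, the fibroblast growth factor receptor that marks astrocytes, was at 9.08, 9.17, 9.07, 9.06 and 9.24 in high mice, against 9.26, 9.44 and 9.54 as the lowest, median and highest medium values. All high arrays lay below all medium ones, and the difference was -0.30 ± 0.06 (adjusted p = 0.0827 in limma). Its other tested probe set gave -0.11 ± 0.09. Hnrnpdl, a splicing regulator, was at -0.41 ± 0.09 on 1456698_s_at and between -0.43 and 0.02 on its other 6 tested probe sets, and it passed with the spike-in set as a block (-0.49, adjusted p = 0.0174 in limma). Gtf3c2, a subunit of the RNA polymerase III factor TFIIIC, was at -0.37 ± 0.08, and its other 3 probe sets lay between -0.29 and -0.18. Chpf2, an enzyme of chondroitin sulfate synthesis, had the largest difference of the 24, at -0.57 ± 0.12. Stx5a, a Golgi SNARE, was at -0.36 ± 0.08 and Parn, a poly(A)-shortening nuclease, at -0.31 ± 0.07. Dnajc27, Zfp580, Acbd4, Serinc3, Plekhn1 and Dok7 made up the rest, between -0.21 and -0.41. Further probe sets of Stx5a (-0.085), Parn (-0.142), Dnajc27 (-0.197), Acbd4 (-0.025) and Serinc3 (-0.087 to 0.069) were nearer to 0.

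Gene groups were described over 11218 genes, each at its brightest tested probe set. Of these, 49.5% lay above 0, 7.23% were higher and 6.15% lower at an unadjusted p under 0.05, and the median was -0.0014. No gene in the chaperone, mitochondrial, proteasome, activity, glucocorticoid and synaptic lists below passed the adjusted test, so the counts that follow use the unadjusted p and describe these 17 mice.

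Chaperones of the endoplasmic reticulum and factors of its stress response lay mostly above 0. Of 25 tested genes, 18 were above 0, 13 were higher and 0 lower at an unadjusted p under 0.05, and the median was 0.17. The list mean was 9.63, 9.40, 9.45, 9.32 and 9.42 in high mice, against 9.10, 9.28 and 9.45 as the lowest, median and highest medium values, so 8 medium mice lay below the lowest high mouse and none above the highest. Manf, a secreted protein of the stressed endoplasmic reticulum, was at 10.59, 10.08, 10.28, 9.91 and 10.17 in high mice, against 9.34, 9.74 and 10.21 in medium mice, with a difference of 0.48 ± 0.11 (unadjusted p = 0.000252). Hspa5, the main HSP70 of this compartment, also known as BiP, differed by 0.34 ± 0.11, Creld2 by 0.48 ± 0.16 and Sdf2l1 by 0.47 ± 0.18. The disulfide isomerases Pdia6, Pdia4 and Pdia3 were at 0.38 ± 0.12, 0.33 ± 0.13 and 0.18 ± 0.07, and the oxidase Ero1b at 0.21 ± 0.07. Of the transcription factors of this response, Xbp1 was at 0.24 ± 0.08 and Ddit3 at 0.17 ± 0.08 (unadjusted p = 0.00534 and 0.0483), and Atf4 was at 0.11 ± 0.05 (unadjusted p = 0.0562). Other members of the same machinery were near 0: the HSP90 of the compartment, Hsp90b1, was at -0.06 ± 0.07, calreticulin, Calr, at -0.03 ± 0.11, calnexin, Canx, at -0.01 ± 0.05 and Hyou1 at -0.04 ± 0.13. With arrays scaled to a common median all 4 lay above 0, by 0.04 to 0.127. The median of all probe sets was 0.0653 under that scaling. The median of the list was 0.16 without medium replicate 9, 0.12 within the third set of arrays and 0.23 within the second.

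Cytosolic chaperones of the HSP70, HSP90 and HSP110 kinds had 12 of 17 genes above 0, with 8 higher and 1 lower at an unadjusted p under 0.05 and a median of 0.13. Hspa1b, the inducible HSP70, was at 10.80, 9.39, 9.87, 9.77 and 10.58 in high mice, against 8.93, 9.42 and 10.44 as the lowest, median and highest medium values. High replicates 1 and 5 lay above every medium array, and high replicate 2 lay below the medium median. The difference of 0.62 ± 0.21 (unadjusted p = 0.00553) and that of its near-identical copy Hspa1a, 0.35 ± 0.15, cannot be separated with certainty, since probes may bind both. Hsph1, the HSP110 that exchanges nucleotides on HSP70, was at 11.52, 11.10, 11.28, 11.24 and 11.33 in high mice, against 10.97, 11.05 and 11.17 in medium mice, with 4 high arrays above every medium one and a difference of 0.24 ± 0.07 (unadjusted p = 0.00149). Hspa14, an HSP70 of the ribosome, was at 0.19 ± 0.05, the HSP90 co-chaperone Chordc1 at 0.32 ± 0.10 and Hspa4l at 0.20 ± 0.07. Some other members were closer to 0 or below it, with Hspa8 at 0.09 ± 0.05, Hsp90aa1 at -0.06 ± 0.05 and Hspa4 at -0.20 ± 0.09 (unadjusted p = 0.0422 in limma). With arrays scaled to a common median, Hsp90aa1 was at 0.089, where the median of all probe sets was 0.0653. The list mean was 9.98 in high replicate 1 and 9.65 to 9.81 in the other high mice, against 9.59 to 9.78 in medium mice. Leaving out single arrays moved the list median between 0.09 and 0.15, and it was 0.06 within the third set and 0.27 within the second.

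J-domain proteins, which hand clients to HSP70, had 18 of 24 genes above 0 and a median of 0.06. Dnajb1, the partner of inducible HSP70, was at 10.49, 9.79, 10.14, 9.99 and 10.26 in high mice, against 9.43, 9.75 and 10.09 in medium mice, a difference of 0.42 ± 0.11 (unadjusted p = 0.000857). Dnajb4 was at 0.24 ± 0.07, and Dnajc10, a reductase of the endoplasmic reticulum, at -0.14 ± 0.06. All 8 subunits of CCT, the ring that folds actin and tubulin, were above 0 by 0.01 to 0.13, with Cct5 and Cct4 at an unadjusted p under 0.05. Of the small heat shock proteins, Hspb1 was at 0.43 ± 0.14 and Cryab at 0.17 ± 0.08, and Hspb6 at -0.19 ± 0.14. In mitochondria, Hspd1, the HSP60 ring that Hspe1 caps, was at 0.05 ± 0.05 and Hspa9 at -0.02 ± 0.05, or 0.09 with arrays scaled to a common median. The median of all probe sets was 0.0653 under that scaling. Of 13 mitochondrial chaperones and proteases, 8 were above 0 and the median was 0.05.

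**Figure D4:**
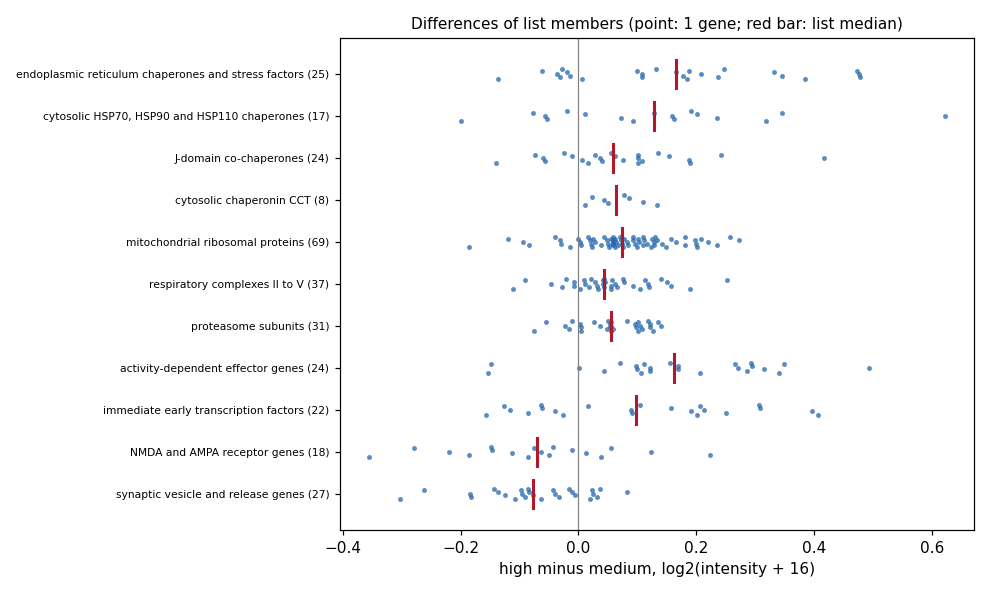
Difference of high minus medium in log2(intensity + 16) for each tested member of 11 gene lists; points are genes, red bars are list medians, and the number of genes stands in brackets. The chaperone, mitochondrial, proteasome and activity lists have medians above 0, from 0.04 to 0.17, and the glutamate receptor and synaptic vesicle lists have medians of -0.07 and -0.08, which become -0.01 and 0.05 with arrays scaled to a common median. Under that scaling the median of all probe sets is 0.0653.

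Some promoters of these genes hold known stress elements, and most of the windows searched held none. Windows of 250 bases before to 50 after the start were searched in the RefSeq table of GRCm38.p6 on both strands. No window was available for Manf and Hspa13. The endoplasmic reticulum stress element, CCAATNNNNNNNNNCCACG or its reverse complement, was found in 8 of 21 windows of the endoplasmic reticulum list, one per gene, and in 0.119% of all 32851 windows. Of the 8 genes, Creld2, Hspa5 and Pdia6 are among the 13 with an unadjusted p under 0.05, and Calr, Canx, Dnajc3, Hsp90b1 and Syvn1 are not. The heat shock element of 3 units, GAANNTTCNNGAA or its reverse complement, was found in 3 of 17 windows of the cytosolic chaperone list (of Chordc1 and Hsph1), in 2 of 32 of the J-domain list (of Dnajb6), and in 0.603% of all windows. Hspe1 holds 2 matches, on overlapping bases. These stretches are shown because they hold the elements of genes with an unadjusted p under 0.05, with the matches in capitals and the gene's strand read 5′ to 3′: Creld2 at chr15:88819480-88819578 (+), Hspa5 at chr2:34771985-34772083 (+), Pdia6 at chr12:17266451-17266549 (+) and Hspe1 at chr1:55088019-55088116 (+).
Creld2: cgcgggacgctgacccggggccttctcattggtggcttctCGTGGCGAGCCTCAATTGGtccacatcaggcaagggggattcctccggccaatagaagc
Hspa5: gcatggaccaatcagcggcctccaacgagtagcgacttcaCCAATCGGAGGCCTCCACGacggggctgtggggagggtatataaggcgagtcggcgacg
Pdia6: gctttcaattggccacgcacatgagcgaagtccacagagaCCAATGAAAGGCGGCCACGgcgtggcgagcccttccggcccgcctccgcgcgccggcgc
Hspe1: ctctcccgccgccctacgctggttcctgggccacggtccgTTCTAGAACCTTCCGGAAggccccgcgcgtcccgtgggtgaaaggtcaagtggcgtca
A match is a stretch of letters and no measure of binding. The element lies at positions -65 to -47 from the start of Hspa5, -98 to -80 for Pdia6 and -126 to -108 for Creld2, where it reads on the opposite strand.

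Genes that neuronal activity switches on lay mostly above 0. Of 24 activity-dependent effector genes, 22 lay above 0, 7 were higher and 0 lower at an unadjusted p under 0.05, and the median was 0.16. The list mean was 8.91, 8.65, 8.74, 8.87 and 8.91 in high mice, against 8.43, 8.65 and 8.78 as the lowest, median and highest medium values, and high replicate 2 lay at the medium median. Bdnf, the neurotrophin that strengthens synapses, was at 9.27, 9.26, 9.34, 9.22 and 9.31 in high mice, against 8.67, 8.87 and 9.23 in medium mice. All but 1 of the high arrays were above every medium array, and the SD was 0.05 in high against 0.18 in medium mice. The difference was 0.35 ± 0.09 (unadjusted p = 0.000343, adjusted p = 0.115 in limma). Low mice averaged 9.10 ± 0.17 (SD) for Bdnf, with a highest value of 9.42, above every high mouse. The prohormone convertase Pcsk1 was at 0.27 ± 0.10, the kinase Plk2, which scales synapses down, at 0.16 ± 0.06, Errfi1, an inhibitor of the epidermal growth factor receptor, at 0.29 ± 0.12, and the activin subunit Inhba at 0.49 ± 0.21. Ptgs2, the inducible cyclooxygenase, was at 0.21 ± 0.09 and Btg2, an antiproliferative gene, at 0.32 ± 0.15. Arc, which removes AMPA receptors from the surface, was at 8.69 ± 0.30 in high and 8.40 ± 0.74 in medium mice (SD, n = 5 and 12), a difference of 0.29 ± 0.29 that did not exceed the spread.

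Of 22 immediate early transcription factors, 14 were above 0 with a median of 0.10, and 1, Crem, had an unadjusted p under 0.05 (0.25 ± 0.09, unadjusted p = 0.00967 in limma). Over all genes 7.23% were higher at such a p, so 1 of 22 is no excess. Fos was at 8.64, 8.60, 9.18, 9.61 and 9.85 in high mice, against 7.46, 8.55 and 9.97 as the lowest, median and highest medium values. The high arrays lay inside the medium range, and the difference of 0.41 ± 0.40 was about as large as its error. Npas4, a neuron-specific factor, was at 0.40 ± 0.35, Nr4a2 at 0.21 ± 0.13 and Per1 at -0.16 ± 0.09.

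The cAMP response element, TGACGTCA, through which activity acts on many of these genes, was found in 6 of 34 promoter windows of the effector list, in Btg2, Dusp1, Errfi1, Pcsk1, Plk2 and Scg2, and in 1.79% of all windows. The 4 with the smallest p among them are shown in the same way: Pcsk1 at chr13:75089739-75089826 (+), Plk2 at chr13:110394942-110395029 (+), Errfi1 at chr4:150854979-150855066 (+) and Btg2 at chr1:134079274-134079361 (-).
Pcsk1: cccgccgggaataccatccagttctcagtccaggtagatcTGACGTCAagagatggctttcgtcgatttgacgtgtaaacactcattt
Plk2: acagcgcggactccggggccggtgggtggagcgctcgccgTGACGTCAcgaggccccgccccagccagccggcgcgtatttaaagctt
Errfi1: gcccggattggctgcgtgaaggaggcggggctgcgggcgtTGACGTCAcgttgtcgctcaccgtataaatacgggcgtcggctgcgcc
Btg2: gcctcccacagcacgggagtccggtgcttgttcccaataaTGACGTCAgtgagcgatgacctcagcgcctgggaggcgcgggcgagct
In Pcsk1, Plk2, Errfi1 and Btg2 the element starts at positions -78, -62, -51 and -166 from the start.

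Genes of the glucocorticoid response, which stress hormone drives in the hippocampus, had 21 of 23 members above 0 and a median of 0.12. Klf9 was at 12.01 ± 0.12 in high and 11.76 ± 0.18 in medium mice (SD, n = 5 and 12), a difference of 0.26 ± 0.08, and Nfkbia at 0.30 ± 0.10 (unadjusted p = 0.00345 and 0.00537, adjusted p = 0.185 and 0.202 in limma). The receptor gene Nr3c1 itself was at -0.18 ± 0.10, and Tsc22d3, a target read in many tissues, at 0.25 ± 0.19. The list median was 0.08 without medium replicate 9 and 0.02 within the third set of arrays, which holds 4 of the 5 high mice.

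Mitochondrial genes had small differences that mostly ran one way. Of 69 mitochondrial ribosomal protein genes, 60 lay above 0, 16 were higher and 0 lower at an unadjusted p under 0.05, and the median was 0.07. Mrps31 was at 0.23 ± 0.06, Mrpl19 at 0.20 ± 0.05, Mrps22 at 0.20 ± 0.06 and Mrpl20 at 0.27 ± 0.08, with unadjusted p from 0.000865 to 0.00237. The list mean was 8.85, 8.91, 8.89, 8.89 and 8.83 in high mice and 8.71, 8.78 and 8.90 as the lowest, median and highest values in medium mice, with 8 medium mice below every high mouse. Of 37 genes of respiratory complexes II to V, 30 were above 0 and 6 were higher at an unadjusted p under 0.05, among them Uqcr10 of complex III (0.25 ± 0.06) and Sdhd and Sdhb of complex II (0.19 ± 0.05 and 0.14 ± 0.05). The list mean was 11.47 to 11.50 in high mice and 11.38 to 11.48 in medium mice, 11 of which lay below every high mouse. Complex I had 25 of 33 genes above 0 and a median of 0.04, with 18 of the 33 above 0 within the third set of arrays. That direction was not limited to mitochondrial genes, with 26 of 36 cytosolic ribosomal protein genes above 0 and a median of 0.031. The proteasome, which degrades proteins, had 26 of 31 subunits above 0 and a median of 0.06, with Psmb4 at 0.13 ± 0.04 and Psmd6 and Psmd14 at 0.12 ± 0.04 each. With the spike-in set as a block, the median was 0.045 for the mitochondrial ribosomal list, 0.041 for complexes II to V, 0.025 for complex I and 0.044 for the proteasome. Within the third set of arrays the medians were 0.048, 0.031, 0.016 and 0.035 in the same order.

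**Figure D5:**
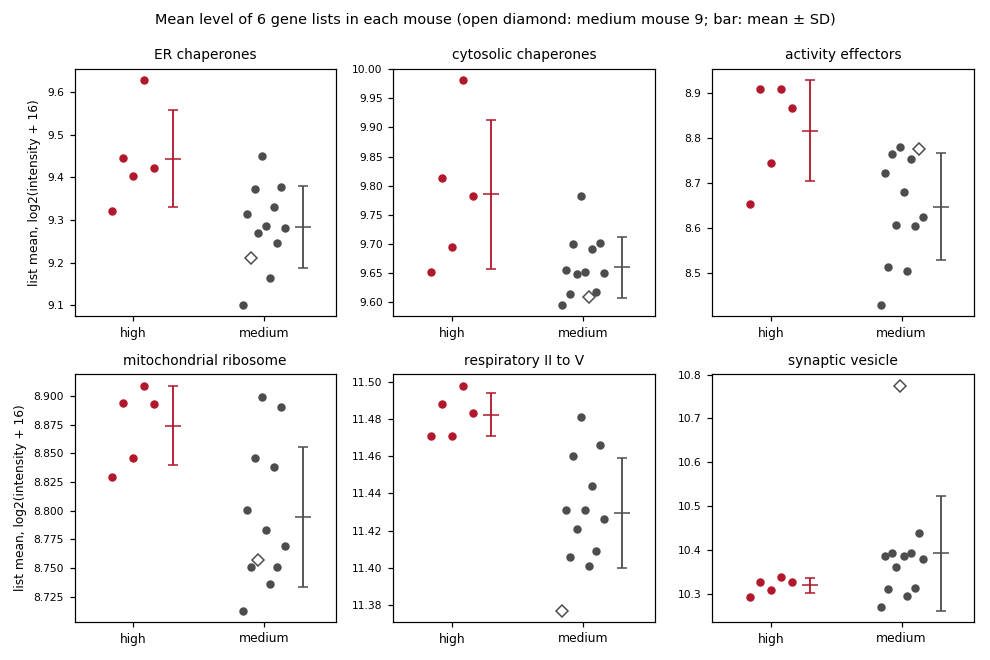
Mean level of 6 gene lists in log2(intensity + 16) in each high and medium mouse; points are mice, the open diamond is medium mouse 9, and bars are means with SD. High mice lie at about the medium median or above it for the chaperone, activity and mitochondrial lists, and below the medium mean for the synaptic vesicle list, where medium mouse 9 is the highest, at 10.77.

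Synaptic lists had medians on both sides of 0, and the sign of some changed with the arrays used or the scaling. The 9 GABA-A receptor subunits had 6 genes above 0 and a median of 0.033, and the 15 postsynaptic scaffold genes had 6 above 0 and a median of -0.018, which was 0.015 without medium replicate 9 and 0.088 with arrays scaled to a common median. Of 27 synaptic vesicle and release genes, 6 were above 0, 0 were higher and 3 lower at an unadjusted p under 0.05, and the median was -0.08. It was -0.04 without medium replicate 9, -0.002 within the third set of arrays and 0.05, above 0, with arrays scaled to a common median, where the median of all probe sets was 0.07. Sv2a, a vesicle glycoprotein, was at 9.65 ± 0.08 in high and 9.92 ± 0.19 in medium mice (SD, n = 5 and 12), a difference of -0.26 ± 0.08 (unadjusted p = 0.00334, adjusted p = 0.185 in limma). Slc32a1, the vesicular transporter of inhibitory neurons, was at -0.30 ± 0.13 and Vamp1 at -0.18 ± 0.08. Without medium replicate 9 they were at -0.24 and -0.15. Vamp1 then had an unadjusted p of 0.0607 in limma, and 2 genes of the list were lower at an unadjusted p under 0.05. Snap25, of the release machinery, was at -0.09 ± 0.05 and at 0.05 with arrays scaled to a common median. Of 18 NMDA and AMPA receptor genes and their auxiliary subunits, 5 were above 0 with a median of -0.07, and 1, Grin2c, had an unadjusted p under 0.05 (-0.36 ± 0.13). Over all genes 6.15% were lower at such a p, so 1 of 18 is no excess. Grin2b was at -0.19 ± 0.11, Gria3 at -0.09 ± 0.06 (0.035 with arrays scaled to a common median) and Gria1 at 0.12 ± 0.13.

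Growth factor and chromatin genes went both ways. Of 16 genes of fibroblast growth factor and neuregulin signalling, 9 were above 0, with 2 higher and 3 lower at an unadjusted p under 0.05 and a median of 0.01. Beside Fgfr3, the receptor Fgfr2 was at -0.22 ± 0.10 and the ligand Nrg3 at -0.18 ± 0.06, and the epidermal growth factor receptor Egfr and the feedback inhibitor Spry4 were at 0.26 ± 0.09 and 0.20 ± 0.09. Of 28 histone acetyltransferase and deacetylase genes, 3 were higher and 5 lower at an unadjusted p under 0.05. The acetyltransferase and coactivator Crebbp was at 0.18 ± 0.05 (unadjusted p = 0.00198) and its partner Ncoa1 at 0.22 ± 0.09, and the acetyltransferase Kat2a and the deacetylase Hdac11 were both at -0.16 (SE 0.06 and 0.07). Of 31 histone methylation genes, 4 were higher and 1 lower. Kdm3b and Kdm1a, like Kdm3a demethylases, were at 0.17 ± 0.06 and 0.13 ± 0.05, and the methyltransferase Dot1l was at -0.24 ± 0.09. Of 28 paraspeckle and splicing genes, Hnrnpc was at 0.23 ± 0.06 and Hnrnpd and Hnrnpa1 at -0.21 ± 0.07 and -0.31 ± 0.15, and 15 were above 0.

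Among markers of other cell types, those of the choroid plexus were bright in a few arrays, none of them from high mice. All 10 tested genes of the choroid plexus, the epithelium in the ventricles beside the hippocampus, lay below 0, between -1.38 and -0.62, and none had an unadjusted p under 0.05. The list mean was 6.25 to 6.86 in high mice, against 6.32, 6.87 and 9.65 as the lowest, median and highest medium values. Of the mice above 8, 0 were high, 4 medium and 3 low. Ttr, the secreted transthyretin of this epithelium, was at 11.08, 8.80, 10.93, 8.50 and 10.23 in high mice and between 8.09 and 13.40 in medium mice, with a median of 10.85 and a difference of -1.35 ± 0.91. Without the medium and low arrays above 8, no probe set passed in limma and 2529 had an unadjusted p under 0.05. The 7 differences were 0.32 for Bloc1s2, 0.38 for Elp4, 0.48 for P4ha2, 0.43 for Rbm14, -0.32 for Ccni, -0.49 for Epb41l1 and -0.53 for Crocc in that fit, each at least as large as with all arrays. With the list mean as a covariate, Bloc1s2, Ccni, P4ha2 and Rbm14 passed (adjusted p = 0.0325 each in limma), and Elp4 (0.355), Epb41l1 (-0.469) and Crocc (-0.475) had adjusted p of 0.0525, 0.0547 and 0.0525 in limma. Meningeal fibroblast markers, in contrast, were bright in a high array. Their list mean was 8.21 in high replicate 2 and 7.17 to 7.48 in the other high mice. In medium mice the lowest, median and highest values were 7.26, 7.57 and 7.90. The median difference of that list was -0.088, with 3 of 11 genes above 0.

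Markers of striatal neurons lay below 0 in 9 of 13 genes, with a median of -0.16 and of -0.09 without medium replicate 9. At an unadjusted p under 0.05 in limma, 1 was higher and 4 lower, with or without medium replicate 9. Ppp1r1b, the dopamine-signalling phosphatase inhibitor of striatal neurons, was at 7.09 ± 0.18 in high and 7.60 ± 0.52 in medium mice (SD, n = 5 and 12), and its highest medium value, 8.97, was that of replicate 9. Neocortical markers had 12 of 15 genes below 0 and a median of -0.13, which was -0.02 without that array. Dentate granule cell markers had 13 of 15 genes above 0 and a median of 0.13, which was 0.04 without it. Pyramidal cell markers had 11 of 19 above 0 and a median of 0.03, and -0.02 without it. These 4 lists thus lay closer to 0 once the array with other regional markers was left out.

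Of 21 astrocyte genes, 11 were above 0 and the median was 0.02, although Fgfr3 and Slc7a10 (-0.35 ± 0.11, unadjusted p = 0.00351) were below every medium mouse in all high mice; 2 genes of the list were higher and 4 lower at an unadjusted p under 0.05. Gfap, the filament protein of reactive astrocytes, was at 9.40 ± 0.26 in high and 9.47 ± 0.35 in medium mice (SD, n = 5 and 12), a difference of -0.07 ± 0.18, or 0.04 with arrays scaled to a common median. Of 18 oligodendrocyte genes, 14 were below 0 with a median of -0.05, and Mbp, of myelin, was at -0.06 ± 0.04; with arrays scaled to a common median both were at 0.06, where the median of all probe sets was 0.0653. Of 19 microglial genes, 16 were above 0 with a median of 0.04, and Trem2 was at 0.53 ± 0.25 (unadjusted p = 0.0409). Within the third set of arrays 9 of the 19 were above 0 and the median was -0.024. Inip, which acts in DNA repair, averaged 7.59 ± 0.08 in high and 7.50 ± 0.10 in medium mice, a difference of 0.10 ± 0.06 (unadjusted p = 0.118, limma).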

How the data were processed

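The deposited table holds linear probe set intensity values, one column per array; they ran from 0.0112 to 13500. Partek and RMA are named in the submitters' processing notes, with no version, and how they gave these linear intensities is not stated. The 41 arrays were quantile-normalized and transformed to log2(intensity + 16). Probe sets at or above the median of the mean level, 22519 of 45037 without array controls, were fitted with limma 3.58.1 in R 4.3.3 over 25 arrays with 1 mean per group (5 high, 12 medium, 8 low), and high minus medium was tested by moderated statistics with Benjamini-Hochberg adjustment at 0.05. Symbols came from the platform annotation, which gives 34945 probe sets 1 symbol, 932 several and 9160 none, and names were taken from the first kind, except for the histone probe set. The number of arrays limits the precision.

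Named were the probe sets past the threshold and their genes' other probe sets, the next 12 genes per direction by p, genes past it without medium replicate 9, the 4 members of each described list with the smallest p (all of short lists), and a fixed set that includes Bdnf, Fos and Ttr. Further list members were named after their values were seen. The members, the 50 lists and the tests were chosen with earlier results of these data known. Arrays were grouped by complete-linkage clustering of the spike-in control probe sets, a step chosen with their values in view. Same-numbered high and medium mice did not deviate together (correlations of deviations from -0.10 to 0.10). Promoter windows came from RefSeq (GRCm38.p6). Alternatives covered the arrays (including the mouse with 2 labels), scaling, offset, filter, variance model and covariates. The fit was tested on simulated data.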

Additional observations from a re-analysis of the deposited data

Results flagged for a closer look

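Of 170 sets of values examined (named genes in the 5 high mice, the 7 called genes in the 8 low mice, and list means in the high mice), 1 was set apart from its group by Dixon's criterion, where chance gives about 5%. Grin2a, which encodes an NMDA receptor subunit, was at 7.32 in high replicate 2 and between 7.59 and 7.68 in the other high mice, a gap of 0.737 of the group's range against a critical value of 0.71. With that mouse, the difference of Grin2a was 0.22 ± 0.14.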

How the results depend on the processing

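The 7 genes that passed kept their direction under each of the 38 alternatives in which they were tested. They were picked on these same arrays, so a kept direction is no separate support. The number of probe sets that passed moved. It was 0 (0 higher, 0 lower) with the 17 high and medium arrays alone, without arrays over 8 for the choroid plexus list, with log2 values centred on array medians, with no normalization (where the median of all probe sets was -0.169), within the second spike-in set and with a replicate block. It was 1 with no filter on dim probe sets (1 higher, 0 lower) and 1 within the third set (0 higher, 1 lower), and neither call was among the 7. It was 23 with all 41 arrays (12 higher, 11 lower), 927 with scaling to a common median (882 and 45), 11 with a stricter filter on brightness (5 and 6), 15 with a variance trend and robust fit (9 and 6), 354 with array weights (205 and 149) and 17 with the hybridization controls alone as a block (8 and 9). Centring after log2, the hybridization-control block and the spike-in block without medium replicate 9 (6 calls) were chosen after seeing the data. The cause was not tested, except that fewer arrays or more probe sets enter some of these fits. Leaving out single arrays gave 0 to 16 calls (0 to 10 higher, 0 to 7 lower): 0 without high replicate 2, 3 or 4 or medium replicate 4, 7 or 10, 1 without medium replicate 8, 3 without high replicate 5, 4 without high replicate 1 or medium replicate 1, 15 when medium replicate 12 was left out and 16 when medium replicate 3 was. The replicate block, with 0 calls and 3060 unadjusted p under 0.05 in limma, pairs mice that share only a number, since correlations of their deviations lay between -0.096 and 0.097.

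Among named genes, some changed sign. Most of these were near 0, but Borcs7, Hnrnpa1, Ank3 and Npas4 within the second set and Arc with the replicate block were not. With common-median scaling, where the median of all probe sets was 0.0653, Gfap was at 0.04, Mbp at 0.062, Snap25 at 0.052, Sptan1 at 0.093, Calr at 0.127, Canx at 0.113, Hsp90b1 at 0.069, Hyou1 at 0.04, Hsp90aa1 at 0.089, Hspa9 at 0.093 and Gria3 at 0.035, so that Gfap, Mbp, Snap25, Hyou1 and Gria3 lay below that median. With centring after log2, Sptan1 was at 0.015, Calr at 0.049, Canx at 0.036, Hsp90aa1 at 0.01 and Hspa9 at 0.018, and with no normalization, relative to the median of all, Sptan1 at 0.002, Calr at 0.036, Canx at 0.022 and Hspa9 at 0.004. Without the choroid plexus arrays, Gfap was at 0.043, Calr at 0.03, Canx at 0.003, Hspa9 at 0.022 and Elp3 at -0.008, and with the covariate at 0.012, 0.022, 0.005, 0.006 and -0.005 in the same order. Within the second set, which holds 1 high mouse, Gfap was at 0.173, Ndufa6 at -0.002, Kdm1a at -0.024, Borcs7 at -0.222, Elp2 at -0.048, Ank3 at -0.122, Ank1 at -0.046, Hnrnpa1 at 0.155, Calr at 0.233, Canx at 0.032, Hsp90b1 at 0.174, Hsp90aa1 at 0.107, Hspa9 at 0.072, Npas4 at -0.243 and the brightest probe set of Kdm5c at -0.08. Within the third set, Grin2a was at -0.022, Sptan1 and Calr at 0.01 and Elp3 at -0.012. With the spike-in block, Calr was at 0.065 (0.058 without medium replicate 9) and Elp3 at -0.01, with the hybridization-control block Elp3 at -0.004 and Hspa9 at 0.006, and with the replicate block Arc at -0.012 and Gria1 at -0.06. Leaving out single arrays moved Calr between -0.127 and 0.054, Canx between -0.04 and 0.014, Hyou1 between -0.073 and 0.011, Hspa9 between -0.043 and 0.005 and Elp3 between -0.008 and 0.039. With the doubly labelled mouse added to the medium group, 8 probe sets passed (5 higher, 3 lower). The cause was not tested.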
